A study of Microtus ochrogaster with 23 samples.

Results

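Methylated open-sea windows are stretches of the prairie vole genome that hold few measured CpGs, lie away from CpG-dense DNA and carry a methyl group on most of their cytosines. The genome was divided into windows of 1 kb, and a cytosine was called good where at least 10 reads covered it in at least 4 animals of each of 4 groups. A window was CpG-dense where at least 30 of its cytosines had at least 10 reads in all 23 animals, and 3592 windows were. A window with many CpGs that some animals did not read that deeply was therefore not counted as CpG-dense. The methylated open-sea windows were chosen by their pooled methylation level, which is all methylated calls over all calls of the 23 animals. They have 3 to 14 good cytosines, no CpG-dense window within 10 windows on the same chromosome or scaffold, and a pooled level of at least 70%. Of 50389 windows tested outside the X chromosome, 5275 met this rule (10.5%), and they held 23569 good cytosines. Among them 293 lay on sequences without any CpG-dense window, so the distance rule could not exclude them.

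The data are reduced representation bisulfite sequencing (RRBS) of the dentate gyrus of the hippocampus, with 1 library per animal, from 6 “Attacker”, 6 “Parental”, 5 “Father” and 6 “Mother” prairie voles, Microtus ochrogaster. All animals were wild-type adults that had met an unfamiliar pup before the tissue was taken. “Attacker” and “Parental” animals were virgin males that attacked or cared for the pup, and “Father” and “Mother” animals were pair-bonded parents tested 3 days after birth. “Mother” is the only female group, so in “Father” vs “Mother” sex and parental role cannot be told apart, and “Attacker” males were taken from the pup at the first attack. The punches held all cell types of the region, so a level is an average over cells, and a change of cell makeup and a change of methylation within cells cannot be told apart.

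In mammalian genomes most CpGs outside CpG islands are methylated by DNA methyltransferases, copied at replication by Dnmt1, and the dense CpGs of islands at gene starts are mostly kept free of the mark. Between islands CpGs are sparse, because methylated cytosines mutate to thymine over evolutionary time. RRBS cuts at CCGG and reads fragment ends, so it samples such sparse regions thinly, in short stretches beside the cut sites. No sequence of these windows was analysed here.

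Among the 27581 open-sea windows, which differ from each other in the level rule only, the methylated ones were a minority. The 5275 windows were 19.1% of the open-sea windows, 15958 windows were at 30% or less with a median pooled level of 6.77%, and 6348 lay between 30% and 70%. The histogram of pooled levels had its highest bar at 0 to 10%, with 9675 windows, and its lowest between 60% and 70%, with 1371 windows, before it rose again to 1868 windows at 90% to 100%. The limit of 70% thus cut through a continuous range. The methylated windows closest above it lay on chromosome 19 at bases 51744210 to 51744264 (70.004%), in Raver2 on chromosome 10 at bases 68667824 to 68667908 (70.008%) and on scaffold JH997002.1 (70.020%). The open-sea windows closest below it lay on scaffold JH998314.1 (69.998%), on chromosome 15 at bases 2311987 to 2311996 (69.978%) and in Prkch on chromosome 1 at bases 11638541 to 11638585 (69.973%). Of the methylated windows 169 were between 70% and 71%. Coordinates are those of the MicOch1.0 build.

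**Figure D1:**
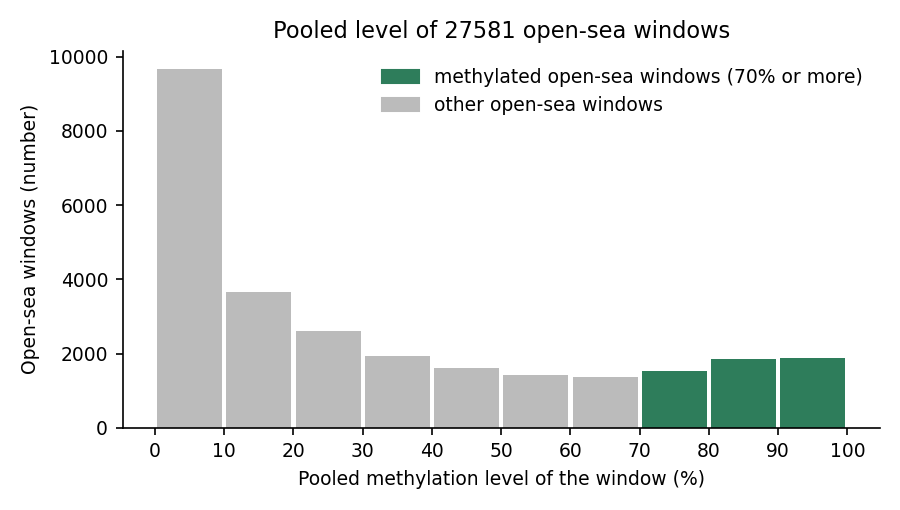
Number of open-sea windows (vertical axis) by pooled methylation level in steps of 10 percentage points (horizontal axis, %). Green bars are the methylated open-sea windows at 70% or more and gray bars are the other open-sea windows, of which 9675 are at 10% or less.

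Within the methylated windows the median pooled level was 86.4%, with 25% of windows below 78.7% and 25% above 92.5%. The fullest 5-point step was 90% to 95%, with 1084 windows (20.5%), and 784 windows (14.9%) were at 95% or more. The number of cytosines, the distance to CpG-dense DNA and the level were all bounded by the rule, so the levels below are a description of the windows it kept. Windows with 3 good cytosines (2267 windows) had a median of 86.5%, and windows with 10 to 14 (209 windows) had a median of 84.5%. A distance to CpG-dense DNA could be measured for 4982 windows, and the 293 on sequences without a CpG-dense window are left out of it. The 862 windows 11 to 50 kb from the nearest CpG-dense window had a median of 87.2%, and the 519 windows more than 1000 kb away had a median of 86.5%. The share of open-sea windows that were methylated differed more along both. It was 30.3% of open-sea windows with 3 good cytosines and 5.22% of those with 10 to 14. It was 16.7% at 11 to 50 kb from CpG-dense DNA and 26.1% beyond 1000 kb. These shares describe the choice of windows and were not tested.

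The good cytosines of a methylated window usually lay close together. Their median span was 59 bp, a stretch that 1 read of 100 bp can cover, against 76 bp in open-sea windows between 30% and 70% and 738 bp in CpG-dense windows at 10% or less. A read gives 1 call at each cytosine it covers, so calls of neighboring cytosines come from the same reads. The median window had 170.7 calls per animal on average, against 323 in the lowly methylated open-sea windows and 4244 in the CpG-dense ones. All 23 animals had at least 10 calls in 2638 of the 5275 windows (50.01%), against 83.6% of the lowly methylated open-sea windows.

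Of methylated open-sea windows on annotated chromosomes 51.9% lay inside a gene and 12.6% near a gene end. The RefSeq gene table covers 27 chromosomes or linkage groups on which 3702 of the windows lay, and the other 1573 were on scaffolds that it does not place. Inside a gene lay 1923 of the 3702 (51.9%), against 55.5% of lowly methylated open-sea windows, 89.3% of CpG-dense windows at 10% or less and 64.5% of all windows tested. The gap was wider at the ends of genes, one of which is the promoter end. Within 2000 bp of a gene start or end were 466 of the methylated windows (12.6%), against 34.8% of lowly methylated open-sea windows and 87.9% of the CpG-dense ones. The open-sea windows between 30% and 70% were close to the methylated ones on both counts, with 51.1% inside genes and 13.03% near gene ends. The table gives neither exons nor strand, so exons and introns are not separated here, and these shares were not tested. The pooled level was 86.9% at the median inside genes (1923 windows) and 85.7% outside them (1779 windows), and windows outside genes were a median of 28.9 kb from the nearest gene.

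In all, 1542 genes held a methylated window, and 1249 of them held only 1. Long genes led the list. Ttn, which encodes the muscle protein titin, held 13 windows over 270 kb, and Zfhx3, a homeobox transcription factor gene, held 10 over 628 kb. Tenm4 and Tenm3, whose teneurin proteins span synapses, held 7 and 6, Wwox held 7, and Cntnap2, the gene of a neuronal adhesion protein, held 6 over 2136 kb. Across the 28 chromosomes and scaffolds with at least 200 open-sea windows, the methylated share ran from 14.8% on chromosome 10 to 29.6% on scaffold JH996438.1, with a median of 18.3%.

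The windows were mostly isolated. Of 5275, 4973 had no methylated open-sea window next to them, 130 pairs were adjacent, and 11 runs had 3 or more. The longest run held 8 windows in a row near the start of linkage group LG12, at bases 19252 to 26925 and 85.5 kb from Cntnap2 at its nearer end. Its windows held 5 to 14 good cytosines each, and pooled levels along the run were 89.3%, 83.2%, 71.4%, 82.7%, 77.2%, 76.4%, 88.6% and 75.6%. Neighbors thus differed by as much as 13.04 points, and the group means of each window lay within 12.1 points of each other.

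Cytosines within a window did not share 1 level. The median cytosine was at 89.8% over all animals, 11652 of 23569 (49.4%) were at 90% or more, and 158 (0.670%) were at 20% or less. In 3157 windows (59.8%) all good cytosines were at 70% or more, and 144 windows (2.73%) were called methylated although 1 or more of their cytosines were at 20% or less. The median range from the lowest to the highest cytosine of a window was 17.1 points. The 2 strands of a CpG are listed separately, and both were good at 1926 CpGs in 935 windows. Their pooled levels differed by a median of 3.44 points and by over 50 points at 4 CpGs. In single animals the strands were further apart. The share of CpGs with strands over 50 points apart, among those with at least 10 reads on each, ran from 4.92% to 15.1% of CpGs over the 23 animals, with a median of 8.11%.

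In single animals the share of cytosines read as wholly methylated fell with read depth. At 50 to 99 reads it was 49.97% of 128032 values. Of 197074 values with 20 to 49 reads at a cytosine of a methylated window, 64.1% were exactly 100% and 3.22% exactly 0%. Of 74909 values with 100 or more reads, 29.7% were exactly 100% and 0.757% exactly 0%. Values between the 2 extremes thus made up 32.7% of the former and 69.6% of the latter. The libraries carried no molecular identifiers, so copies of 1 molecule cannot be counted once, and any error computed from calls covers counting only.

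The animals spread widely around these levels. In the 2638 windows read in all animals, the SD between the 23 animals was 10.2 points at the median, with 25% of windows below 6.82 and 25% above 13.9. Counting the calls as independent draws gave an SD of 2.48 points at the median. The spread was smaller in deeper windows, with a median SD of 11.9 points in the 1468 windows with 100 to 300 calls per animal and 4.80 points in the 137 windows with 1000 or more, where the counting SD was 0.948. All 23 animals were at 70% or more in 768 windows (29.1%), and in 722 windows (27.4%) the highest and lowest animals were over 50 points apart.

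**Figure D2:**
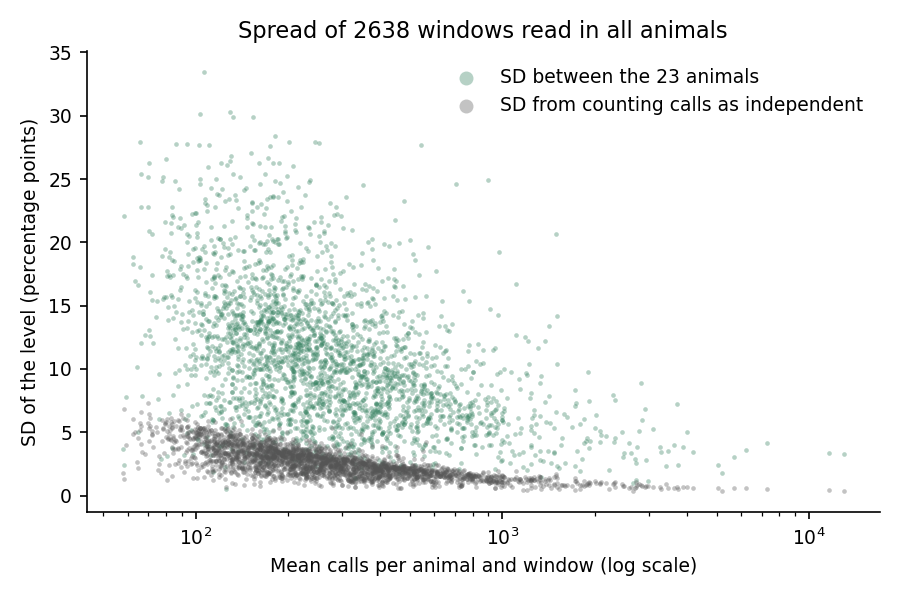
SD of the methylation level between the 23 animals (vertical axis, percentage points) against mean calls per animal (horizontal axis, log scale), 1 green point for each of the 2638 windows read in all animals. Gray points give the SD that counting calls as independent draws would leave, with a median of 2.48 points against 10.2 for the green ones.

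Some windows went from nearly unmethylated to nearly methylated between animals. An animal at 20% or less and another at 80% or more were found in 154 of the 2638 windows (5.84%). In 31 of the 154 windows 2 or more animals were at 20% or less and in the rest only 1. “Attacker” 1 was that low in 33 of the 154 windows and every other animal in 1 to 18. It also had the lowest share of its calls on methylated open-sea windows, 0.859%. The largest SD, 33.5 points, was on chromosome 8 at bases 22600080 to 22600143, 199456 bp from Wdr11. Its 3 good cytosines were at 90.6% to 100% in the 6 “Attacker” animals, with a median of 96.6%, and at 0%, 66.7%, 72.5%, 92.1%, 100% and 100% in “Parental”. The “Father” animals were at 3.70%, 30.8%, 84.5%, 100% and 100% and “Mother” ran from 12.5% to 100% with a median of 55.1%, so low and high animals sat side by side in 3 groups. A window inside Smad6 on chromosome 5, bases 75722912 to 75722953, had an SD of 30.2 points, with a “Father” at 0% and a “Parental” animal at 11.1% while the median of each group was between 79.3% and 94.2%. Smad6 is an inhibitor of signaling by bone morphogenetic proteins. A window on linkage group LG1 at bases 22821717 to 22821884 and 16151 bp from Rbm47 had an SD of 30.3 points, with 3 animals at 20% or less and 10 at 80% or more. These windows had 84 to 108 calls in the median animal. The animals at 20% or less in them had 12 to 90 calls, with the 12 in “Attacker” 1 near Rbm47.

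Of the 3 steadiest windows 2 were almost fully methylated and 1 was not. A window inside Rab37, a gene of vesicle transport, on chromosome 7 at bases 78121642 to 78121704, was fully methylated in nearly every animal, with a pooled level of 99.7%, a lowest animal of 97.6% and an SD of 0.513 points. A window 1925 bp from Klhl25 on chromosome 22, bases 18180359 to 18180428, was at 97.7% with an SD of 1.02 points. A window on scaffold JH996449.1, bases 3136589 to 3136658, held a partial level of 82.8% with an SD of 1.15 points between animals that ranged only from 79.2% to 84.6%, and with 2330 calls in the median animal it was read far more deeply than most.

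Libraries differed in how much of their sequence fell on these windows. Calls per library ranged from 64896224 to 129376223, calls on methylated open-sea windows from 842536 to 2632236, and their share of the library from 0.859% in “Attacker” 1 to 3.801% in “Attacker” 6. The mean level over the 2638 windows read in all animals moved with that share. It was lowest in “Attacker” 1, at 81.0%, and highest in “Attacker” 6, at 86.7%. Over the 23 animals Pearson’s r was 0.85 and Spearman’s rho 0.86 (permutation p = 1e-05 for each, adjusted 1.33e-05 over 4 relations, the smallest that 100000 permutations can give before adjustment), and r was 0.83 without “Attacker” 5 and “Attacker” 6, which had the most extreme shares. After the group means were taken out of both measures r was 0.91. Total calls were less closely tied to the level, with r of -0.41 and rho of -0.41 (permutation p = 0.0511 and 0.0574, both the same after adjustment), and r was again -0.41 without “Father” 1 and “Attacker” 1. The relation was not particular to the methylated windows. The same share went with the mean level of the open-sea windows between 30% and 70%, with r of 0.98, rho of 0.92 and r of 0.96 without the same animals, and with that of the windows at 30% or less, with r of 0.92, rho of 0.83 and r of 0.84 (permutation p = 1e-05, adjusted 1.33e-05, for each).

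The 4 groups did not separate by mean level. It was 84.1% ± 2.02 in “Attacker” (SD, n = 6), 84.4% ± 1.01 in “Parental” (n = 6), 84.6% ± 0.872 in “Father” (n = 5) and 83.7% ± 0.578 in “Mother” (n = 6). The animals of all groups overlapped. “Attacker” differed from “Parental” by -0.317 points (two-sided exact permutation p = 0.745, adjusted 0.745 over the 4 comparisons) and from “Father” by -0.507 points (exact p = 0.623, adjusted 0.745). “Parental” differed from “Father” by -0.190 points (exact p = 0.745, adjusted 0.745), and “Father” was 0.847 points above “Mother” (exact p = 0.0909, adjusted 0.364). The differences of “Attacker” from “Parental” and “Father” changed sign without “Attacker” 1, to 0.293 and 0.103 points. The share of calls on these windows, which went with the level, was 2.11% ± 1.11 in “Attacker”, 1.73% ± 0.509 in “Parental”, 1.76% ± 0.701 in “Father” and 1.43% ± 0.242 in “Mother”. When the level was adjusted for that share, by a slope of 2.12 points per doubling taken within the groups of the same 23 animals and chosen after the relation was seen, “Attacker” differed from “Parental” by -0.668 points (permutation p = 0.0303) and from “Father” by -0.876 points (permutation p = 0.0281), each with an adjusted p of 0.0606 over the 4 comparisons. The slope was held fixed in the permutations, so these p-values leave out the error of the slope and are too small.

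**Figure D3:**
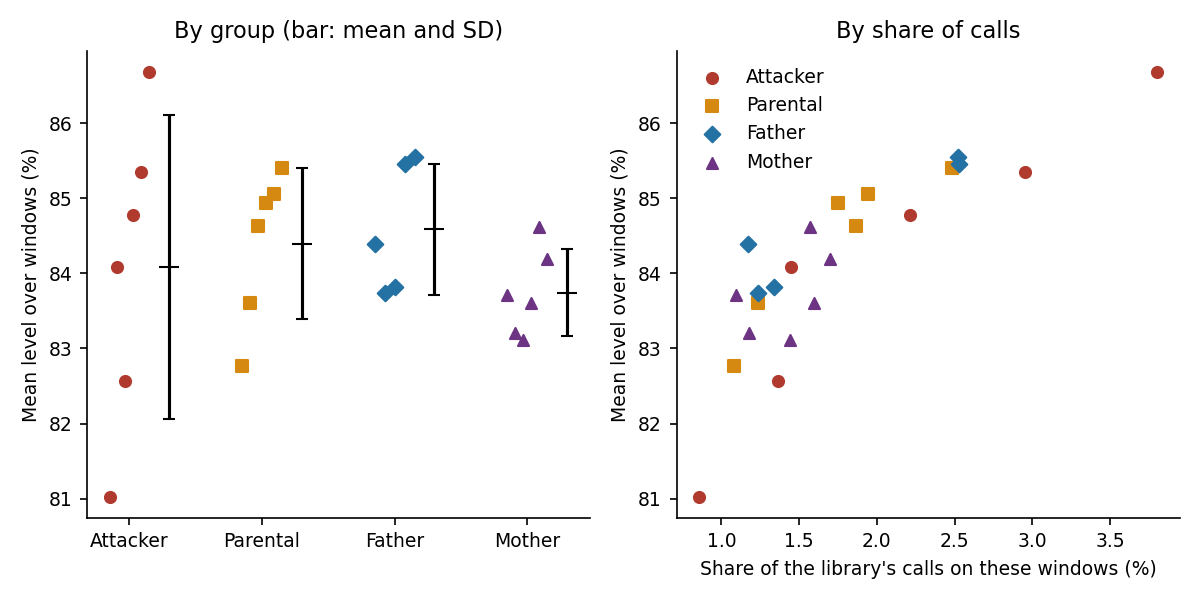
Mean methylation level over the 2638 methylated open-sea windows read in all animals (vertical axes, %), 1 point per animal. Left, by group with the mean and SD as black bars, and right, against the share of the library’s calls that fell on methylated open-sea windows (horizontal axis, %), where “Attacker” 1 lies lowest at 0.859% and “Attacker” 6 highest at 3.801%.

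Single windows were then compared between virgin males that attacked or cared for the pup, between virgin males and fathers, and between fathers and mothers. Fathers had also been paired with a female and lived with her and their litter, while virgin males lived with a same-sex sibling. Fatherhood, pairing and housing therefore cannot be told apart. In the 3 comparisons among males no methylated open-sea window passed an adjusted p of 0.05 in the limma fit, and none of the 50389 windows did (0.0%). At an unadjusted p under 0.05 there were 252 methylated windows for “Attacker” vs “Parental” (4.78%, against 5.17% of all windows), 310 for “Attacker” vs “Father” (5.88%, against 5.41%) and 223 for “Parental” vs “Father” (4.23%, against 4.24%). The share of methylated windows was near that of all windows in each. An arcsine-link Wald test called 14 (0.265%, against 0.143% of all windows), 11 (0.209%, against 0.185%) and 9 (0.171%, against 0.0913%). With edgeR, where 1 common dispersion of 0.6135 was used for every window, no methylated window was called, and its share over all windows is not given here. In the same order the median absolute difference was 4.13, 4.41 and 4.13 points. Differences of 15 points or more occurred in 358, 471 and 395 windows, and in the 756 windows with at least 100 calls in every animal the median absolute difference was 2.73, 2.95 and 2.74 points.

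The windows with the smallest p-values in these 3 comparisons are given as values, since none was called. In “Attacker” vs “Parental” the first lay on chromosome 7 at bases 12079499 to 12079545, 68933 bp from Litaf, at 98.7% ± 2.11 in “Attacker” and 92.3% ± 3.57 in “Parental” (SD, n = 6 each, limma adjusted p = 0.779). The largest of the first 5 differences lay on chromosome 18 at bases 46477524 to 46477611, 20934 bp from Synpo, whose protein shapes actin in dendritic spines. It was at 91.6% ± 12.04 in “Attacker” and 57.2% ± 19.7 in “Parental” (n = 6 each, limma adjusted p = 0.779), and the ranges overlapped, at 69.05% to 100% and 25% to 79.1%. A window with 10 good cytosines on chromosome 2 at bases 29206536 to 29206915 had a range of 63.5% to 74.8% in “Attacker” and 74.96% to 95.7% in “Parental”, so these animals did not overlap (limma adjusted p = 0.779). The other 2 were on scaffold JH996631.1, at 79.9% ± 17.9 and 98.2% ± 3.505, and on chromosome 1 at bases 57457808 to 57457965, at 88.9% ± 2.78 and 96.4% ± 2.88 (“Attacker” and “Parental”, n = 6 each, limma adjusted p = 0.779 for both).

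In “Attacker” vs “Father” the first window lay inside Brms1l, a gene of a histone deacetylase complex, on chromosome 1 at bases 57642018 to 57642064. It was at 93.8% ± 13.4 in “Attacker” (n = 6) and 44.2% ± 21.95 in “Father” (n = 4, limma adjusted p = 0.688), with 42 calls in the median animal. The others were at 81.9% ± 3.14 and 92.3% ± 5.07 on chromosome 5 (bases 54508508 to 54508564, limma adjusted p = 0.701), at 83.8% ± 8.68 and 100% in all 4 “Father” animals on scaffold JH996529.1, and at 99.7% ± 0.546 and 80.1% ± 5.42 on chromosome 16 (bases 45689602 to 45689661, 21233 bp from Adtrp), the last 2 with a limma adjusted p of 0.727. The fifth was a window on linkage group LG3 described with “Father” vs “Mother”.

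In “Parental” vs “Father” that LG3 window came first. The next lay inside Slc25a27, which encodes a mitochondrial carrier of the uncoupling protein family found in brain, on linkage group LG2 at bases 6822821 to 6822963. It was at 67.0% ± 14.2 in “Parental” (n = 6) and 95.9% ± 8.89 in “Father” (n = 5), where the lowest animal was at 80% and the median at 100% (limma adjusted p = 1.00). The remaining 3, on chromosome 1 at bases 102420028 to 102420154, on scaffold JH996442.1 and on linkage group LG7_11 at bases 10262471 to 10262835, were all lower in “Parental” than in “Father”, with differences of -12.6, -37.8 and -33.2 points and limma adjusted p of 1.00 for each.

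“Father” vs “Mother” was the only comparison with calls. Of the 5275 methylated open-sea windows 7 passed an adjusted p of 0.05 in the limma fit (0.133%), 4 higher in “Father” and 3 higher in “Mother”, against 137 of all 50389 windows (0.272%). The share was thus below that of all windows, and 37 of the 15958 open-sea windows at 30% or less were called (0.232%), all of them higher in “Mother”. At an unadjusted p under 0.05 there were 329 methylated windows (6.24%), against 5.3% of all windows, and the median absolute difference was 4.53 points. edgeR called none of the 7, and the Wald test called 38 methylated windows (0.720%, against 0.681% of all windows). Leaving out 1 animal at a time left 2 to 8 calls, with 2 without “Father” 2, “Father” 3 or “Mother” 4, 3 without “Father” 1 or “Mother” 6 and 4 without “Father” 5.

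The strongest call lay between genes on chromosome 6 at bases 30672703 to 30672760, 60109 bp from LOC101991336, with 10 good cytosines. The 5 “Father” animals were at 90.5%, 94.5%, 94.4%, 90.1% and 92.7% and the 6 “Mother” animals ran from 75.6% to 84.7% with a median of 83.1%. “Attacker” ran from 89.6% to 96.4% with a median of 92.9% and “Parental” from 89.3% to 93.1% with a median of 90.7%, so all 17 males were above all 6 females. The difference of “Father” and “Mother” was 10.9 points (92.5% ± 2.08, n = 5, and 81.6% ± 3.44, n = 6, limma adjusted p = 0.000720), and it stayed past the threshold without each of the 11 animals in turn.

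The reads of that window were not spread alike over its cytosines in the 2 sexes. The first 5 cytosines took 57.5% to 66.0% of the window’s calls in “Mother”, 78.9% to 89.1% in “Father”, 78.6% to 89.2% in “Parental” and 79.9% to 97.7% in “Attacker”. Calls per animal were also fewer in “Mother”, 193 to 828, than in “Father”, 846 to 2676, “Parental”, 1160 to 2468, or “Attacker”, 983 to 2548. Whether reads from other places in the genome were aligned here was not tested. The first 5 cytosines were the more methylated, at 96.2% in “Father” and 88.6% in “Mother” when pooled, and the last 5 were at 70.7% and 72.9%. When each cytosine was first set against its own mean over animals, the difference was no longer called (limma adjusted p = 1.00). At the second cytosine, base 30672710, “Father” was at 89.5% and “Mother” at 72.5%, and 2 of the 10 cytosines, bases 30672738 and 30672760, were higher in “Mother”.

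The LG3 window, at bases 13134924 to 13134949 and 77288 bp from LOC101980462, set the “Father” animals apart from every other animal. They were at 73.9%, 68.1%, 72.0%, 74.5% and 79.4%. “Attacker” ran from 82.3% to 98.0% with a median of 90.5%, “Parental” from 90.3% to 100% with a median of 94.8% and “Mother” from 87.5% to 100% with a median of 92.3%, so no animal of another group was as low as the highest “Father”. “Father” was lower than “Mother” in the mean, at 73.6% ± 4.12 (n = 5) and 93.8% ± 5.10 (n = 6, limma adjusted p = 0.0144). Against the other males “Father” was 16.7 points below “Attacker” (limma adjusted p = 0.727) and 21.3 points below “Parental” (limma adjusted p = 0.767), and neither was called. With cytosines set against their own means it was the 1 methylated open-sea window called in “Parental” vs “Father” (limma adjusted p = 0.0132). In “Father” vs “Mother” its limma adjusted p was then 0.00112. The 3 comparisons share the “Father” animals. All 4 cytosines were lower in “Father” than in “Mother”, and the third, at base 13134942, differed most, with 46.9% ± 16.1 in “Father” (n = 5, 19.8% to 58.2%) and 95.6% ± 10.4 in “Mother” (n = 6, 74.4% to 100%). That cytosine was also called on its own (limma adjusted p = 0.0232). The window’s call was lost without “Father” 2 (limma adjusted p = 0.0605) and without “Father” 3 (0.0503).

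Both other windows called on linkage groups were between or inside named genes. The window inside LOC102001491 on LG8, bases 22179166 to 22179325, had 11 good cytosines and was at 60.3%, 71.2%, 82.8%, 82.1% and 86.8% in “Father” and from 88.6% to 98.5% in “Mother” with a median of 95.4%. The groups did not overlap, “Father” differed from “Mother” by -17.6 points (limma adjusted p = 0.0155), and “Attacker” (88.9% ± 2.86) and “Parental” (81.4% ± 6.61, n = 6 each) lay between. Of its cytosines 10 were lower in “Father”, and the last 5 ran down to 0% in “Father”. “Parental” animals also went down to 0% at 4 of these 5, and a “Mother” did at the last of them. The window 3398 bp from Adhfe1, a gene of a mitochondrial alcohol dehydrogenase, on LG5 at bases 17626774 to 17626836 had 3 good cytosines and was read in 4 “Father” and 5 “Mother” animals. It was at 100%, 100%, 88.4% and 100% in “Father” and from 37.5% to 90% in “Mother”, so the groups overlapped in 1 animal, with a difference of 36.6 points (limma adjusted p = 0.0264).

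The other 3 called windows were on scaffolds without gene annotation in the table used here. On JH996453.1 at bases 1905773 to 1905805 the “Father” animals were at 66.7%, 66.7%, 21.7%, 78.7% and 57.8% and the 5 “Mother” animals with calls at 97.2% to 100% (limma adjusted p = 0.0344). On JH996515.1 at bases 919551 to 919634 “Father” was at 100%, 100%, 100%, 93.2% and 94.9% and “Mother” at 72.7% to 92.8%, with a median of 85.8% (limma adjusted p = 0.0387). On JH996430.1 at bases 10498377 to 10498445 “Father” was at 100%, 100%, 100%, 90.4% and 100% and “Mother” at 0% to 75%, with a median of 70.6% (limma adjusted p = 0.0441). The groups did not overlap in any of the 3, and the “Attacker” mean lay between theirs in each, at 83.5% ± 14.9, 96.7% ± 2.80 and 67.9% ± 18.4 (n = 6 each). These windows and those above were chosen by their p-values in the same animals, so a lack of overlap is a description only. The share of all windows without overlap is not given here. Every cytosine of the 3 scaffold windows and of the LG5 window differed in the direction of its window, by 3.33 to 64.0 points. Cytosines of a window share reads and the windows were chosen by their difference, so this agreement is no separate support. With 1 of the 11 animals left out at a time, the call was kept in 9 of 11 fits on LG3, 7 on LG8, 5 on JH996430.1, 4 on LG5, 4 on JH996515.1 and 2 on JH996453.1. With cytosines set against their own means, the limma adjusted p rose to 0.782 on LG8, 0.273 on JH996430.1, 0.206 on JH996453.1, 0.103 on LG5 and 0.0642 on JH996515.1, so 5 of these 6 windows were no longer called.

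**Figure D4:**
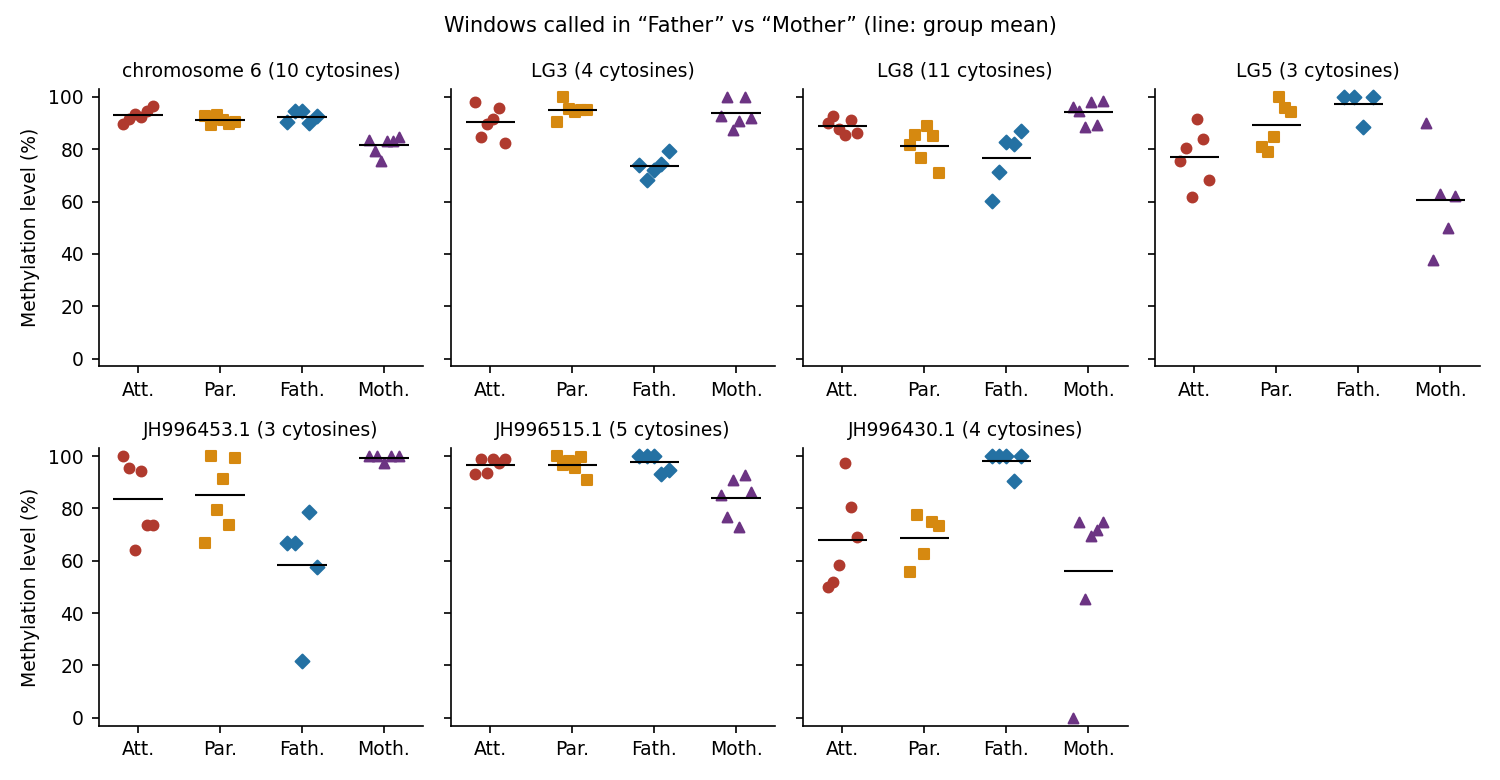
Methylation level (vertical axes, %) of the 7 methylated open-sea windows called in “Father” vs “Mother”, 1 panel per window, named by chromosome or scaffold with its number of good cytosines. Points are animals with at least 10 calls in the 4 groups and lines are group means, and on LG3 the 5 “Father” animals, at 68.1% to 79.4%, lie below all 18 others.

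Single cytosines of the methylated windows gave few calls after adjustment over all 1069286 good cytosines outside the X chromosome. “Attacker” vs “Parental” gave 1 call (0.000187% of all cytosines were called) and “Attacker” vs “Father” none (0.000281%). “Parental” vs “Father” gave 2 (0.000561%) and so did “Father” vs “Mother” (0.019%). For the comparison without a call, 1341 cytosines (5.69%) had an unadjusted limma p under 0.05, against 4.14% of all cytosines. A cytosine on scaffold JH997660.1, base 1294, made up the first call and one of the next 2. It was at 93.1% to 100% in the 6 “Attacker” animals and at 100% in 4 “Father” animals, and at 42.3% to 72.2% in the 4 “Parental” animals read (limma adjusted p = 0.00301 and 0.00611). The other cytosine of “Parental” vs “Father” lay in Dnah8, a gene of a dynein heavy chain, on LG2 at base 49513416, at 71.9% ± 9.07 in “Parental” (n = 4) and at 100% in 4 “Father” animals (limma adjusted p = 0.0123). In “Father” vs “Mother” the cytosines were that of the LG3 window and one on chromosome 2 at base 695879, where the table lists Ttc28 and LOC101999208, at 100% in 4 “Father” animals and 62.2% ± 17.6 in “Mother” (n = 5, limma adjusted p = 0.00573). Apart from the LG3 window, the windows holding these cytosines were not called.

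The criterion used by the study for a differentially methylated CpG (DMC), an unadjusted Wald p under 0.05 with a difference over 15 points, passed far more. It passed 1319 cytosines of methylated windows for “Attacker” vs “Parental” (5.60%, against 1.49% of all cytosines) and 1472 for “Attacker” vs “Father” (6.25%, against 1.62%). It passed 1285 for “Parental” vs “Father” (5.45%, against 1.4%) and 1529 for “Father” vs “Mother” (6.49%, against 1.61%). The open-sea windows between 30% and 70% passed more, at 8.55% to 9.63% over the 4 comparisons, those at 30% or less 2.96% to 3.70% and the CpG-dense windows at 10% or less 0.151% to 0.187%. All windows tested had a median pooled level of 4.62%, where a difference over 15 points has little room. Depth differed too, with a median of 170.7 calls per animal in methylated windows, 548 in all windows tested and 4244 in the CpG-dense ones. How far level or depth set the shares passing this criterion was not tested. With the limma test and no requirement on the difference, the methylated windows had 4.91% to 5.69% of cytosines at an unadjusted p under 0.05 and the CpG-dense ones 2.67% to 3.61%. Over all cytosines it was 3.64%, 4.14%, 3.3% and 3.72% in the order of the comparisons above.

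**Figure D5:**
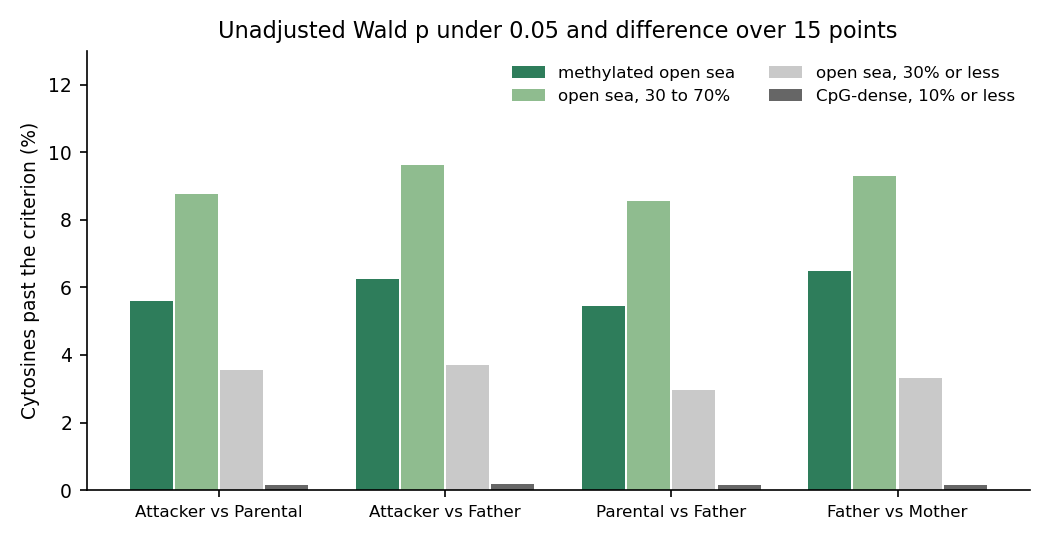
Share of good cytosines with an unadjusted Wald p under 0.05 and a difference over 15 points (vertical axis, %) in the 4 comparisons (horizontal axis), by kind of window. Methylated open-sea windows (dark green) lie between 5.45% and 6.49% and CpG-dense windows at 10% or less between 0.151% and 0.187%.

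Methylated open-sea windows were also looked up in 12 lists of genes of the dentate gyrus, of its cell types and of signaling. They lay inside 38 listed genes, with 48 windows. No window of any list was called in any comparison, and 4 of the 48 had an unadjusted limma p under 0.05 in 1 or more of them. Of all windows 4.24% to 5.41% had such a p in a single comparison, and the share over any of the 4 comparisons was not computed. The values of these 4 windows are given below as a description. Of 27 axon guidance genes in the gene table, 10 held 13 windows, with a median pooled level of 85.1%. Slit1, which encodes a repellent ligand, had a window at 94.4% (chromosome 8, bases 69129111 to 69129182) with group means of 93.0% to 95.7%, and Slit3 had 3 windows. Netrin ligand Ntn1 had a window at 77.5%, and the netrin receptors Dcc and Unc5d had 1 at 83.0% and 2 at 72.0% and 91.6%. The higher of the Unc5d windows, on LG7_11 at bases 5962273 to 5962305, was the list’s only one with an unadjusted limma p under 0.05. It was at 79.3% ± 14.8 in “Father” (n = 5) and 94.3% to 96.8% in the means of the other groups, with an unadjusted limma p of 0.0403 against “Attacker”, 0.0219 against “Parental” and 0.0163 against “Mother”.

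Of 14 calcium channel genes 7 held 11 windows, with a median of 86.4%. Pore subunits were represented by Cacna1d (78.3%), Cacna1e (91.3% and 85.5%) and Cacna1i (77.5%), and auxiliary subunits by Cacnb4 with 3 windows at 71.6%, 94.0% and 86.4%, Cacna2d1 with 2, Cacna2d3 and Cacng2 with 1 each. In Cacna1d, on chromosome 6 at bases 66319634 to 66319700, the group means were 76.9% ± 11.7, 76.5% ± 7.12, 78.0% ± 5.21 and 78.7% ± 3.55 for “Attacker”, “Parental”, “Father” and “Mother”, within the spread of each. A Cacna1e window that also lies inside Mgat5, on chromosome 6 at bases 3372056 to 3372135, was the list’s only one with an unadjusted limma p under 0.05. It was at 83.4% ± 8.17 in “Father” (n = 5), 92.7% ± 3.90 in “Attacker” (n = 6), 91.0% ± 6.55 in “Parental” (n = 4) and 93.4% ± 4.54 in “Mother” (n = 5). The unadjusted limma p of “Father” was 0.0355 against “Attacker” and 0.0280 against “Mother”. Of 22 glutamate receptor genes 6 held 7 windows, with a median of 89.6%. They were the AMPA receptor subunit gene Gria1 (79.3%), the NMDA receptor subunit gene Grin2a (89.7%), the kainate receptor genes Grik1, Grik4 and Grik5 and the metabotropic receptor gene Grm5 (94.0%). A Grik4 window on chromosome 5 at bases 36646590 to 36646641 was at 94.9% ± 6.20 in “Parental” (n = 6) and 73.3% ± 24.3 in “Father” (n = 4), and the ranges overlapped. Its unadjusted limma p was 0.0438 in that comparison. None of 9 GABA receptor genes held one.

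Of 43 Wnt signaling genes 5 held 1 window each, with a median of 84.1%. They were the ligand gene Wnt11 (82.7%), the inhibitor gene Sfrp1 (84.6%), the receptor gene Ror2 (78.4%) and the transcription factor genes Lef1 (87.6%) and Tcf7l2 (84.1%). The Tcf7l2 window, on chromosome 8 at bases 83176621 to 83176674, was at 93.1% ± 6.35 in “Father” (n = 5) and at 79.3% ± 4.14, 83.0% ± 8.48 and 83.6% ± 8.13 in “Attacker”, “Parental” and “Mother” (n = 6 each). Its unadjusted limma p was 0.00275 against “Attacker”, 0.0232 against “Parental” and 0.0243 against “Mother”, and none of its comparisons passed the adjustment over all windows. Ror2 ranged from 6.25% to 83.3% in “Attacker” alone. Of 17 genes of social hormone signaling, the estrogen receptor gene Esr1 (LG9, bases 16676239 to 16676258) had a window at 85.8% that ran from 0% to 100% in “Mother”, and the serotonin receptor gene Htr2a had one at 78.3%. Each had 3 good cytosines.

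Of 14 genes of the granule cells themselves 3 held windows. Dsp, which encodes desmoplakin and is a marker of mature granule neurons, held 3 windows. Adjacent windows at bases 42438935 to 42438980 and 42439043 to 42439103 of chromosome 16 were at 73.0% and 75.8%, and the other at 42463563 to 42463783 was at 89.4%. With 10 good cytosines the second ran from 47.6% to 86.5% in “Attacker” and from 58.5% to 87.1% in “Mother”, so group means of 73.2% to 79.6% lay within the spread of each group. Dock10 (78.9%) and Glis3 (91.6%) held 1 each. Of 10 oligodendrocyte and 10 microglial genes, Mag (91.7%), Mobp (84.3%) and Pdgfra (70.6%), the last a gene of precursors, and Itgam (88.7%) of microglia held 1 each. The Mag window also lies inside LOC113457658, which spans 1206 kb and held 10 windows in all. Of 12 genes of the methylation machinery only Dnmt1, the maintenance methyltransferase, had a window with 9 good cytosines at 82.1% and group means of 74.9% to 85.4%. None of 18 neurogenesis and 8 astrocyte genes held one.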

How the data were processed

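RRBS libraries of 23 animals (Diagenode kit, MspI, single-end reads of 100 bp) were trimmed with Trim Galore in RRBS mode and aligned to MicOch1.0 with Bismark on bowtie2 by the authors. The deposited counts are, per animal and CpG cytosine, the reads covering it and the methylated reads, as whole-number counts with the strands listed separately and without normalization. The submitters’ processing notes also name bcl2fastq.

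Counts were summed per window of 1 kb, leaving out the X chromosome. A level is methylated over all calls. Levels were turned into arcsine square roots, with 0.5 added to methylated and 1 to all calls, and compared with limma 3.58.1 (R 4.3.3, moderated test, variance trend on depth) in 1 fit of the 4 groups over animals with at least 10 calls, with Benjamini-Hochberg adjustment over all 50389 windows or 1069286 cytosines. The study’s own test, the general mode of DSS, was rewritten here as an arcsine-link beta-binomial Wald test. Mean levels were compared by exact permutation (Python 3.11.15, scipy 1.17.1). Alternatives included edgeR 4.0.16, deeper reads and leaving out each animal. The fits were tested on simulated data.

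The windows, gene lists and tests were chosen with earlier results of these data known. Named windows were, per comparison, the 5 with the smallest p-values, called windows whose animals did not overlap first and all called windows in addition, then the 3 with the largest and smallest SD, the 3 on each side of the 70% limit, the longest run, and up to 4 per gene list with the most cytosines. Other windows of listed genes were named after their values were seen. Genes are those of the RefSeq table of MicOch1.0. No 2 libraries had equal counts at over 1.82% of the good cytosines. Errors from calls cover counting only.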

Additional observations from a re-analysis of the deposited data

Results flagged for a closer look

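Gaps between an animal and the rest of its group were measured for the mean level and the named windows of the comparisons and of the largest and smallest spread. Of 108 groups 21 held an animal whose gap passed Dixon’s 95% value, which chance passes in about 1 in 20 unselected groups with a normal spread. The windows were chosen by p-value or SD in the same animals, so the 21 cannot be set against that rate. The mean level over all windows flagged none. Many of the groups were bounded at 100%, where the other animals lay close together.

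In “Attacker” the lowest animal stood apart in the windows near Synpo on chromosome 18 (69.05%), inside Brms1l on chromosome 1 (66.7%), on chromosome 1 at base 102420028 (82.4%), near Rbm47 on LG1 (0.0%) and inside Rab37 (97.6%), and the highest stood apart on scaffold JH996442.1 (100%). In “Parental” the lowest animal stood apart on scaffold JH996631.1 (91.1%), in the window on chromosome 8 (0.0%) and inside Rab37 (99.5%). In “Father” it did so inside Slc25a27 on LG2 (80%), on chromosome 1 at base 102420028 (98.6%), on JH996442.1 (65.4%), on LG7_11 (77.2%), on JH996430.1 (90.4%), near Adhfe1 on LG5 (88.4%) and inside Smad6 (0.0%). In “Mother” it did so on JH996529.1 (85.2%), on LG7_11 (0.0%), on JH996453.1 (97.2%) and inside Smad6 (33.3%), and the highest “Mother” stood apart inside Brms1l (100%).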

How the results depend on the processing

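Called methylated windows numbered 0 in each comparison among males and 7 for “Father” vs “Mother”. Values are given for “Attacker” against “Parental”, then “Attacker” against “Father”, then “Parental” against “Father”, then “Father” against “Mother”. The arcsine-link Wald test gave 14, 11, 9 and 38, cytosine-centred levels gave 1 for the third comparison and 2 for the fourth, a fit of “Father” and “Mother” alone gave 2 and edgeR 0. Leaving out 1 animal gave 0 in each of the first 3 and 2 to 8 in the last. The other alternatives stayed within 1.5 times these counts. Called cytosines numbered 1, 0, 2 and 2. The study’s criterion gave 1319, 1472, 1285 and 1529, and cytosines with at least 20 reads gave 18, 22, 19 and 33, where by construction a group may hold few animals. With at least 4 animals of each group, added after the data were seen, they gave 0 for “Attacker” vs “Parental” and 0 for “Parental” vs “Father”. Leaving out 1 animal gave 1 to 4, 0 to 2, 1 to 4 and 1 to 4. The cause of the other changes was not tested. Apart from the Wald test and the study’s criterion, shares over all windows or cytosines under the alternatives are not given here. Those counts therefore describe the settings and do not set the methylated windows apart from others.

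The mean level of “Attacker” less “Parental” was reversed by the median over windows, 0.0295 points, and adjustment for the share of calls, added after the data were seen, gave -0.668 points there and -0.876 points in “Attacker” vs “Father”. Leaving out 1 animal gave -0.837 to 0.293, -1.03 to 0.103, -0.404 to 0.136 and 0.608 to 1.06 points. Signs turned without “Attacker” 1 (0.293 and 0.103), and in “Parental” vs “Father” without “Parental” 1 (0.136), “Father” 4 (0.0275) or “Father” 5 (0.0488). In “Father” vs “Mother” the exact permutation p was 0.0397 without “Mother” 5.

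Over 42643 windows the deviations of same-numbered animals had correlations of -0.0238 to 0.0876, and the fits were left unpaired. These were windows of any level, not the methylated open-sea windows alone. Mean level over methylated windows was lowest in replicate 1 and highest in replicate 6 of “Attacker” (81.0% and 86.7%) and “Parental” (82.8% and 85.4%). In “Father” and “Mother” replicate 5 was highest (85.5% and 84.6%) and replicate 1 was not lowest. “Father” was above “Mother” in mean level in 5 of 5 same-numbered pairs, by 0.527 to 1.86 points. “Father” has no replicate 6, so paired differences with it leave out replicate 6 of the other group. With the replicate number as a block 0, 0, 0 and 5 windows were called, and mean levels differed by -0.317, -1.03, -0.390 and 0.938 points (exact permutation p = 0.562, 0.188, 0.438 and 0.0625, the last being the smallest that 5 pairs allow). Counting alone left an SD of 2.48 points at the median, where animals differed by an SD of 10.2.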

Other observations

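In each of the 4 groups the library labelled replicate 1 had the lowest share of calls on methylated open-sea windows, at 0.859% in “Attacker”, 1.08% in “Parental”, 1.17% in “Father” and 1.10% in “Mother”. The highest share was in replicate 6 of “Attacker” (3.80%), “Parental” (2.48%) and “Mother” (1.70%). “Father” had it in replicate 4 (2.53%), with replicate 5 at 2.52%. The share thus tended to rise with the number in every group, though not at each step, and this was not tested. The labels do not say what the number stands for. In the pooled data the 2 strands of a CpG differed by a mean of -0.019 points, lower position less upper, over 1926 CpGs.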
